A study of Mus musculus with 173 samples.

Results

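Stem-like cells of the adult mouse dentate gyrus were compared according to how much astrocyte-marker RNA they carried. Cells were chosen by measured values in 3 steps. Of the libraries titled C, those with a TPM of at least 100 for Slc1a3, a glutamate transporter of astrocytes and radial stem cells, were kept. Cells with a mean log2(TPM + 1) of 1 or more over the cycling genes Mki67, Top2a, Cdk1, Ccnb1, Cenpf and Birc5 were then removed. TPM is a length-scaled share of transcripts, so levels of different genes can be compared within a cell, and the depth of each cell is unknown. The 81 cells left were ranked by a score, the mean log2(TPM + 1) of Aqp4, S100b, Aldh1l1, Gjb6, Fgfr3 and Slc4a4. The 27 cells with the highest scores are called marker-high, the 27 with the lowest marker-low, and the 27 between them marker-middle, out of 172 libraries in the series.

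The study profiled single cells of the dentate gyrus to follow quiescent neural stem cells and the cells they give rise to. All libraries came from C57BL/6 mice aged 8 to 12 weeks, and every cell used in the comparison belonged to title class C. The labels spell out neither the class letters (26 libraries are titled N, 4 R and the others C) nor the promoter behind the cyan fluorescent protein eCFP, whose transcript has a row of its own, and they name no animal, pool, sort or batch. Cells are not replicates when their animals are unknown. Each group was treated as 1 sample, no test was made, and every SD below is between cells.

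Radial stem cells of the dentate gyrus are a form of glia. They share with mature astrocytes the transporters, connexins and fatty-acid and glutamate enzymes that supply and clean up around neurons, and many genes used as astrocyte markers are also read in stem cells. Mature astrocytes are usually told apart by the water channel Aqp4, the calcium-binding protein S100b, the folate enzyme Aldh1l1 and the connexin Gjb6. When a radial stem cell is activated it passes through intermediate progenitors, marked by Eomes and cell-cycle genes, to neuroblasts.

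The score was 0.51 ± 0.42 in marker-low cells (SD, n = 27, from 0 to 1.31), 1.61 ± 0.16 in marker-middle cells and 3.17 ± 0.97 in marker-high cells (from 1.99 to 6.68). The highest score in the middle group was 1.84 and the lowest was 1.34. The lowest Slc1a3 TPM inside the selection was 128.9 and the highest outside it 92.56. The highest cycling mean inside was 0.989 and the lowest outside 1.0005. The Slc1a3 step removed 5 cells of class C and the cycling genes removed 56 of the others.

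**Figure D1:**
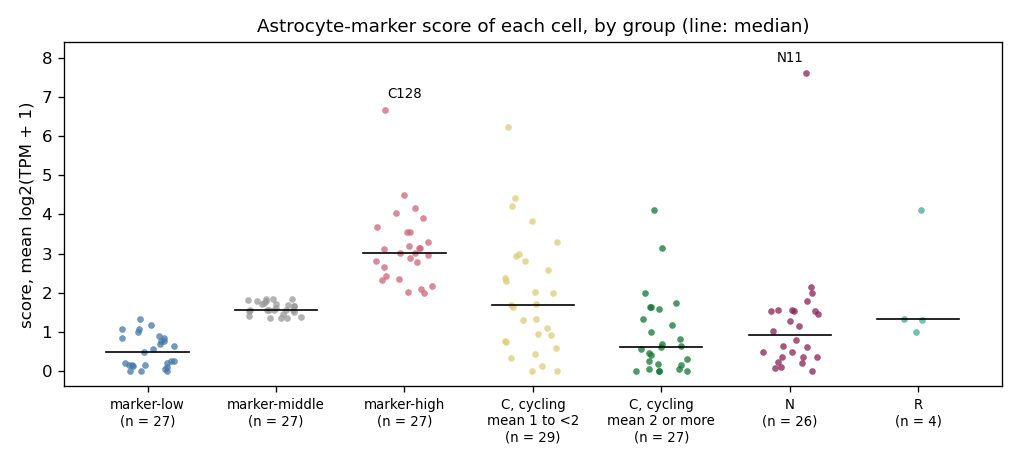
Astrocyte-marker score (mean log2(TPM + 1) of 6 genes) of each library by group, without the 5 C cells below the Slc1a3 limit, each dot a cell and each line a group median. The groups of 27 meet at 1.31 and 1.34 and at 1.84 and 1.99, cell C128 lies apart at 6.68, and the highest score of the series, 7.61, belongs to N11, which is not in class C.

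The label of the marker-high cells was checked against the 4 defining markers, counting a gene as seen at a TPM of at least 1. These are the values that chose the cells and are given as a description. Aqp4 was seen in 17 of 27 marker-high cells (63%, exact Clopper-Pearson 95% interval 42.4 to 80.6, counting error only) and in 0 of 27 marker-low cells, for which the same interval reaches 12.8% and the limit that 3 counts set is 11.1%. S100b was seen in 12 and 5 cells, Aldh1l1 in 9 and 1, and Gjb6 in 7 and 2. Among the other score genes, the fibroblast growth factor receptor Fgfr3 was seen in 21 and 7 cells, and the bicarbonate transporter Slc4a4 in 17 and 6. Only 2 marker-high cells, C128 and C76, had all 4 defining markers, another 2 had 3 of them, 12 had 2, 7 had 1 and 4 had none. The label of an astrocyte-marker high group thus describes the sum of the markers in each cell, and most of its cells lacked at least 2 of the 4.

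Cell C128 had the highest score among the selected cells. Its TPM was 1071 for Aqp4, 104.7 for S100b, 12.6 for Aldh1l1, 352.5 for Gjb6, 135.2 for Fgfr3 and 14.6 for Slc4a4. Cell C76 also had every marker, but at lower levels of Aqp4 (6.30 TPM) and Fgfr3 (1.58 TPM). Other cells reached a similar score through other genes. C93 had 1180 TPM of Aqp4 and 305 TPM of Gjb6 with S100b listed at 0. C115 had 691.5 TPM of Fgfr3 and 698.2 TPM of Slc4a4 with Aqp4 listed at 0. C78, the marker-high cell closest to the border, was there on 2474 TPM of Fgfr3, with each of the 4 defining markers listed at 0. At the other end, 12 marker-low cells had none of the 6 genes at a TPM of 1.

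**Figure D2:**
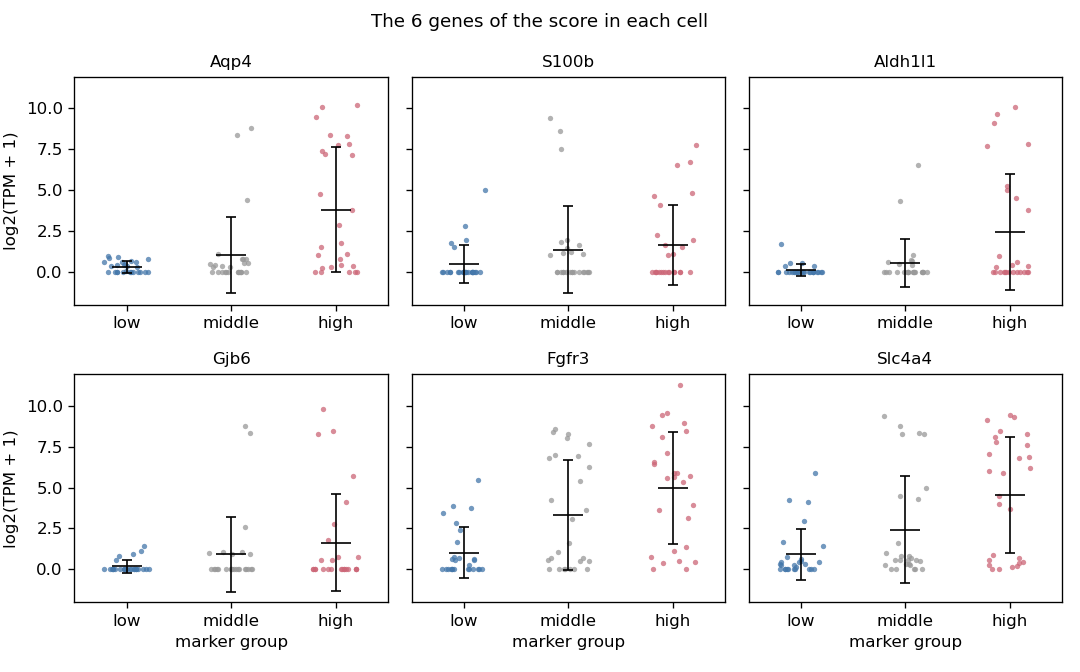
log2(TPM + 1) of the 6 score genes in each marker-low, marker-middle and marker-high cell, with the group mean and SD between cells as bars. Aqp4 was seen in 0, 4 and 17 cells of the 3 groups, and every gene leaves some marker-high cells at 0.

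The 6 genes were weakly correlated with each other across the 81 cells. Over the 15 pairs of score genes Spearman's rho ran from -0.19 to 0.25 with a median of 0.07, and 14 pairs were positive. These cells come from 1 table and share an unknown depth, so the values are a description. The genes were seen in 13 (Aldh1l1) to 43 (Fgfr3) of the 81 cells. A low rho between genes so often unseen cannot show that they vary independently. Fgfr3 and Slc4a4 were seen together in 21 cells, the most of any pair. S100b and Fgfr3 formed the negative pair. Each gene was also left out and the cells ranked by the other 5. The left-out gene was higher in the top-ranked cells for Aqp4 (by 1.504 on the log2 scale), Aldh1l1 (0.52), Slc4a4 (0.45) and Gjb6 (0.36). At the top and bottom ends Aqp4 was seen in 13 and 3 cells, Aldh1l1 in 6 and 4, Slc4a4 in 11 and 10, and Gjb6 in 5 and 4. The median difference of all genes under these rankings was 0.18, 0.20, 0.30 and 0.16, in the same order. It was lower there for S100b (-0.41) and Fgfr3 (-0.48), and Fgfr3 was then seen in 13 cells of either end. Aqp4 was thus higher also where it did not rank the cells, and S100b and Fgfr3 were not.

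Across genes outside the score, the marker-high cells had more detected genes and slightly higher values overall. Genes that reached a TPM of 1 numbered 3244 ± 609 in marker-low, 3494 ± 773 in marker-middle and 3641 ± 888 in marker-high cells. Differences below are the mean log2(TPM + 1) of marker-high cells minus that of marker-low cells, over the 5674 genes seen in at least 20% of the 81 cells. Differences on this scale understate those of low genes. Their median was 0.20, and 62.2% were above 0. A difference of 2 or more, a 4-fold change on this scale, was found in 148 genes that were higher in marker-high cells (2.61% of those compared) and 25 that were lower (0.441%). With the libraries rescaled to the 785 genes seen in at least 80% of selected cells, every difference fell by 0.48, and the counts became 49 higher and 74 lower. The share of calls that were higher went from 85.5% to 39.8%. List medians are therefore to be read against the median of all genes, 0.20, which moves with the scaling. Several lists below are also described by their place against 0, which changes with the scaling. With rescaled libraries the median of a list of astroglial transcription factors went from 0.36 to -0.12. Of 74 oxidative phosphorylation genes, 53 were above 0 before rescaling and 43 after it. A gene can pass the filter through the group in which it is high, so the median over every listed gene in the table is given beside that over the genes compared.

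The differences were small beside the spread between cells. Over the genes compared the median SD between cells, pooled over both groups, was 2.73, and the difference reached 1 SD for 11 genes, of which 10 were among the 148. The values of the marker-high and marker-low cells overlapped for all 5674 genes. A count of 148 thus describes these cells and has no replicate check.

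Astroglial genes outside the score were higher in marker-high cells as a group. Of 99 genes in 5 astroglial lists, 76 were seen widely enough to compare. Their median difference was 1.21, which is 1.01 above the median of all genes, and 69 of 76 were above 0. 14 were higher by 2 or more (18.4%, beside 2.61% of all genes) and 0 were lower by as much. Over all 99 genes the median was 0.90. None of the 11 genes whose difference reached 1 SD belonged to these lists. The mean over the 99 genes was 3.83 ± 0.72 in marker-low, 4.50 ± 0.65 in marker-middle and 4.77 ± 0.55 in marker-high cells. The median gene differed by 0.70 between marker-middle and marker-low cells and by 0.38 between marker-high and marker-middle cells, so most of the step lay at the low end. 26 of 27 marker-high cells were above the median of the marker-low cells, 9 were above every marker-low cell, and 5 marker-low cells were below every marker-high cell.

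**Figure D3:**
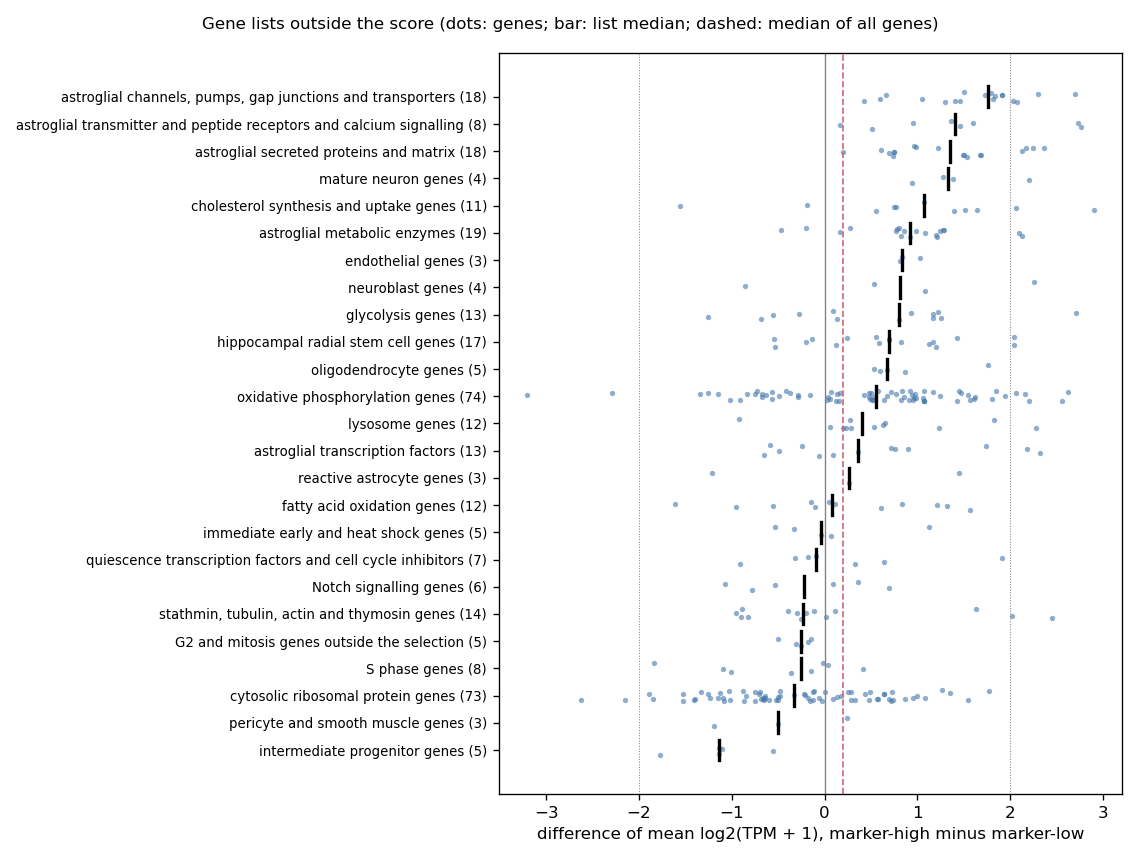
Difference in mean log2(TPM + 1), marker-high minus marker-low, for each gene (dot) of the lists with at least 3 genes compared, with list medians as bars, the all-gene median of 0.20 dashed and differences of 2 dotted. Astroglial channels and transporters have the highest list median (1.76) and intermediate progenitor genes the lowest (-1.14).

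Channels, pumps, gap junctions and transporters formed the astroglial list with the highest median, 1.76 over the 18 genes compared and 1.48 over all 22, and all 22 were above 0. Slco1c1, which carries thyroid hormone into astroglia, was seen in 18 of 27 marker-high and 5 of 27 marker-low cells. Its TPM ran from 0 over a median of 12.1 to 583.6 in marker-high cells and from 0 over 0.54 to 929.1 in marker-low cells, a difference of 2.70. The highest single value was thus in a marker-low cell, and all but 1 marker-low cell were low. Gja1, the main connexin of astroglial gap junctions, was at a median of 879.3 TPM (1.63 to 6041) in marker-high and 491.4 TPM (0 to 2824) in marker-low cells, with a difference of 1.92. Atp1b2, a subunit of the glial sodium pump, had a median of 199.4 TPM in marker-high, 440.4 in marker-middle and 4.90 in marker-low cells. Its difference of 2.30 became -0.034 when mean TPM was compared in place of mean log2 values. The glutamate transporter Slc1a2 was abundant in every group, at log2 levels of 9.80 ± 1.01 in marker-high and 8.76 ± 2.03 in marker-low cells.

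Receptors of astroglia were mostly too rarely seen to compare, with 8 of 17 passing. The median difference of these 8 was 1.41, all being above 0, and over all 17 it was 0.43, with 12 above 0. Ntsr2, a neurotensin receptor, was at a TPM of at least 1 in all 27 marker-high cells and in 19 marker-low cells. Its TPM ran from 1.07 over 407.1 to 1693 in marker-high cells and from 0 over 41.03 to 4068 in marker-low cells, a difference of 2.76. The marker-low cells fell at both extremes, some at 0 and some above every marker-high cell. The orphan receptor Gpr37l1 was at medians of 236.8 and 7.51 TPM, up to 2250 and 781.1, with a difference of 2.73. Fgfr2, a relative of the score gene Fgfr3, differed by 0.17 and was seen in 7 cells of both groups, with 13 in marker-middle cells.

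Metabolic enzymes of astroglia had a median difference of 0.92, with 17 of the 19 compared above 0, and the same median over all 21. Glul, which makes glutamine from glutamate, was at medians of 154.6 TPM (0 to 1166) in marker-high and 53.8 TPM (0 to 1362) in marker-low cells and differed by 2.12. The fatty-acid activating enzyme Acsl6 differed by 2.10 and was seen in 21 and 15 cells. Aldoc, the aldolase of astroglia, was among the most abundant transcripts in both groups, with medians of 9996 and 6933 TPM. The exceptions were Cbs, a sulphur amino acid enzyme (-0.47), and Phgdh, the entry enzyme of serine synthesis (-0.21). Phgdh peaked in marker-middle cells, at 9.05 ± 2.94 on the log2 scale beside 5.98 ± 3.84 in marker-high and 6.19 ± 3.77 in marker-low cells.

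Secreted and matrix proteins had a median difference of 1.36 over the 18 compared, all above 0, and of 0.98 over all 23, with 20 above 0. Agt, the precursor of angiotensin, was seen in 20 marker-high and 18 marker-low cells, but its highest values were 2627 and 1138 TPM and its difference was 2.36. Bcan, the matrix protein brevican, was seen in 18 and 7 cells and differed by 2.24. The protease inhibitor Cst3 was the highest of the genes named here in both groups, at medians of 23834 and 22134 TPM, and differed by 0.20, which is the median of all genes. Apoe, which carries lipids out of astrocytes, differed by 0.75, with marker-high cells between 827.3 and 14531 TPM and marker-low cells between 60.3 and 9637 TPM.

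Transcription factors of astroglia were mixed. Their median difference was 0.36, which is 0.16 above that of all genes, and 8 of the 13 compared were above 0. Over all 16 the median was 0.20. The hedgehog effector Gli3 differed by 2.32, from a median of 0.16 TPM in marker-low to 7.56 TPM in marker-high cells, and Id3, an inhibitor of differentiation, by 2.19. Gli3 was lower in marker-high cells (-1.10) among the 24 cells with a cycling mean under 0.5. Sox9, which specifies glia, was seen in all 27 cells of both groups and differed by 0.72. Zbtb20 (-0.66) and Emx2 (-0.59), regulators of the hippocampal field, were lower in marker-high cells. The medians of the membrane, receptor and secreted lists were thus further from that of all genes than the median of these regulators, and the difference between lists was not tested.

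**Figure D4:**
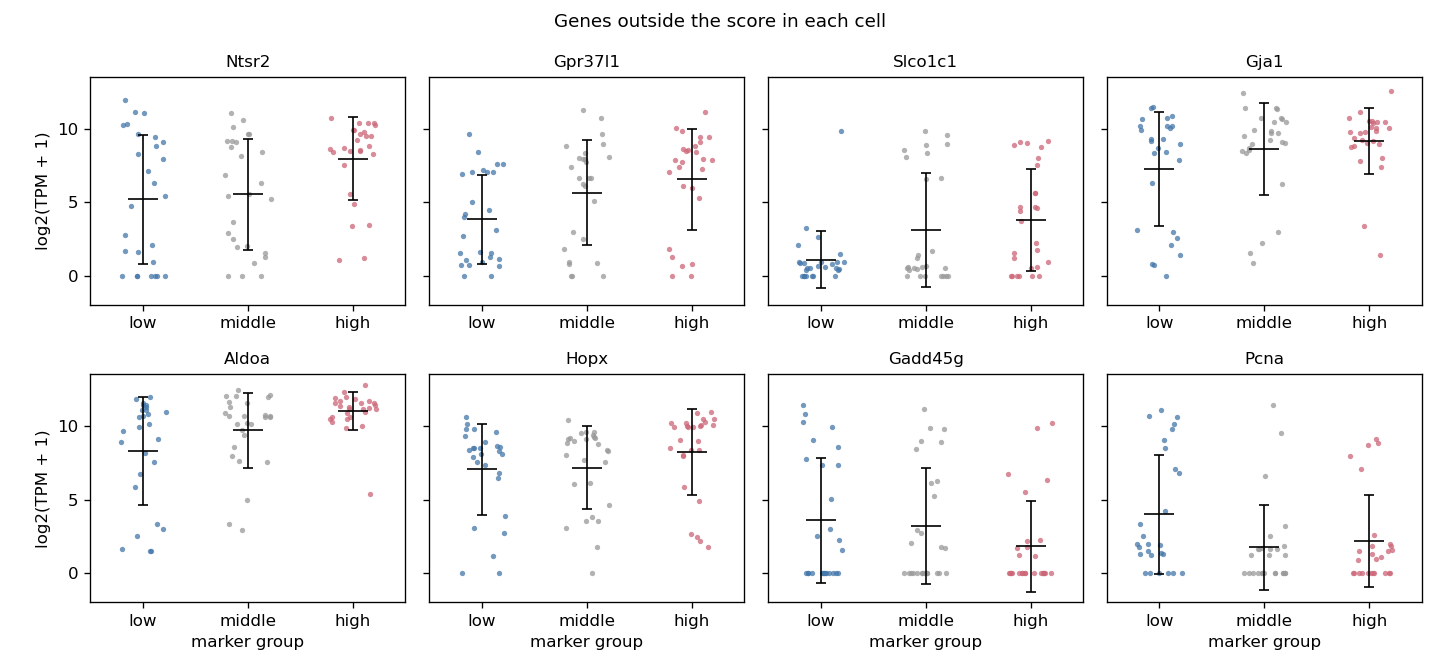
log2(TPM + 1) of 8 genes outside the score in each marker-low, marker-middle and marker-high cell, with the group mean and SD between cells. Ntsr2 and Aldoa have few marker-high cells near 0, whereas Gadd45g and Pcna have more high values among the marker-low cells, and the groups overlap for every gene.

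The filament genes of glia differed in opposite directions. Gfap, the filament of astrocytes and radial stem cells, ran from 0.92 over 383.7 to 2402 TPM in marker-high and from 0 over 267.9 to 3219 TPM in marker-low cells, a difference of 1.45. Vim, another filament of radial glia, was lower in marker-high cells by 1.21, with medians of 58.5 and 308.3 TPM. When the 81 cells were ranked by Gfap, 12 marker-high cells were in the top 27 and 6 in the bottom 27, beside 10 and 10 of the marker-low cells. Only 3 of 13 reactive astrocyte genes were seen widely enough to compare.

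Stem cell genes as a list were not lower in the marker-high than in the marker-low cells. Of 17 genes compared (of 20), 13 were above 0, and the median was 0.70, or 0.49 above that of all genes. Over all 20 it was 0.57, with 14 above 0. The mean over the list was 4.48 ± 0.83 in marker-low, 4.67 ± 0.88 in marker-middle and 4.99 ± 0.88 in marker-high cells. The median gene compared differed by 0.22 between marker-middle and marker-low cells, beside 0.13 for all genes. Between marker-high and marker-middle cells it differed by -0.16, beside 0.08 for all genes. Hopx, a marker of quiescent stem cells, was seen in all 27 marker-high cells, from 2.41 over 966.9 to 2029 TPM, and ran from 0 over 310.8 to 1557 TPM in marker-low cells, a difference of 1.17. Sox2, a pluripotency and stem cell factor, was seen in 20 marker-high and 15 marker-low cells and differed by 1.43, although marker-middle cells were lowest, with 13. Cd81, a tetraspanin, and the matrix protein tenascin C (Tnc) differed by 2.05 and 2.04. Fabp7, the brain fatty-acid binding protein, was at 9847 and 6184 TPM in the median and differed by 0.56. The filament Nes (0.13), Sox1 (-0.54) and Ptprz1 (-0.55) were close to 0 or lower. The reporter eCFP differed by -0.26, with medians of 6883 and 8766 TPM, and Slc1a3, which the selection used, by 0.58.

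Intermediate progenitor genes went the other way. All 5 compared were lower in marker-high cells, with a median of -1.14, and 0 of them reached a difference of 2. Over all 16 listed the median was -0.49, with 2 above 0. Gadd45g, a growth arrest gene of newborn progenitors, was seen in 11 marker-high and 14 marker-low cells, with highest values of 1186 and 2722 TPM, and differed by -1.78. Btg2, which slows progenitor division, differed by -1.14, and the cyclin Ccnd2, whose medians were 6.04 and 13.2 TPM, by -1.10. Eomes, the defining factor of these progenitors, was seen in 1 marker-high and 4 marker-low cells, too few to compare, and reached 2744 TPM in a marker-low cell. Over the list, 5 marker-low cells were above every marker-high cell.

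Neuroblast genes, of the next stage, were higher in marker-high cells. The median was 0.81 over the 4 compared, of which 3 were above 0, and 0.40 over all 12, of which 8 were. The mean over the list was 1.20 ± 0.57 in marker-low and 1.64 ± 0.64 in marker-high cells. Ncam1, an adhesion molecule that glia also make, was seen in all 27 marker-high cells at a median of 143.3 TPM and in 21 marker-low cells at a median of 18.7 TPM, and differed by 2.26. Dpysl3, a growth cone protein, differed by -0.85.

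6 marker-low cells (C112, C138, C15, C65, C73 and C95) and the marker-middle cell C109 had a mean of at least 3 over the intermediate progenitor, S phase or stress genes. They include C138 (4.94 over progenitor genes, 1.84 over the 5 astroglial lists) and C95 (6.13 over S phase and 6.04 over immediate early and heat shock genes). Without these 7 cells, and with the remaining 74 ranked anew, the astroglial median was 0.88, beside 0.33 for all genes. The progenitor median was then -0.42, a smaller difference that follows from how the cells were picked. The median of the stem cell list was then 0.53. The medians of astroglial receptors (1.14), membrane proteins (1.12) and secreted proteins (1.03) were still above that of all genes, and the median of astroglial transcription factors was -0.04.

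Cell-cycle genes outside the selection were close to 0 or lower. For the 8 S phase genes compared the median was -0.26, and over all 19 it was -0.38, with 4 above 0. Without the 7 progenitor, S phase or stress cells the S phase median was 0.36, beside 0.33 for all genes. Of the 7 S phase genes then compared, 5 were above 0. Some of those cells were picked for high S phase genes. Pcna, the clamp of DNA polymerase, was seen in 14 marker-high and 21 marker-low cells, up to 556.2 and 2181 TPM, and differed by -1.83. The thymidylate synthase Tyms differed by 0.04. Of 19 genes of G2 and mitosis the 5 compared were below 0, with a median of -0.26, and over all 19 the median was -0.06, with 7 above 0. Quiescence genes had a median of -0.09 over the 7 compared and -0.03 over all 13, and Klf9, a factor linked to stem cell quiescence, differed by 1.91 and was seen in 15 and 6 cells. Notch pathway genes had a median of -0.22, with 3 of the 6 compared above 0, and of 0.095 over all 15: Hes6 was lower by 1.07 and Notch2 higher by 0.70.

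**Figure D5:**
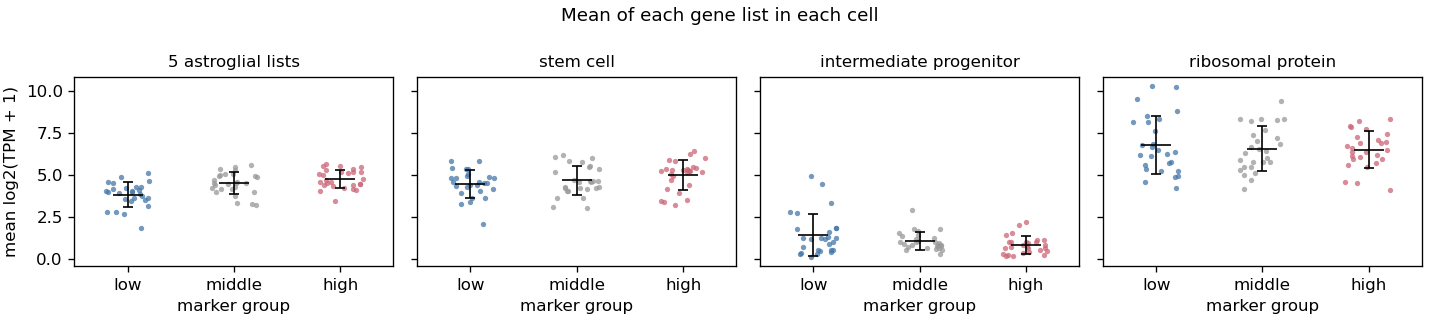
Mean log2(TPM + 1) of 4 gene lists in each marker-low, marker-middle and marker-high cell, with the group mean and SD between cells. The astroglial mean steps from 3.83 over 4.50 to 4.77, while the progenitor list has a tail of marker-low cells up to 4.94 and ribosomal protein genes overlap throughout.

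Ribosomal protein genes were slightly lower and metabolic genes mixed. Of 73 ribosomal protein genes, 46 were below 0, and the median was -0.33, or -0.54 against that of all genes. The list median was -0.22 over all 77, and 0.03 over the 73 without the 7 progenitor, S phase or stress cells. Rpl8, a protein of the large subunit, was at medians of 12.4 TPM (0 to 5533) in marker-high and 781.6 TPM (2.79 to 5729) in marker-low cells and differed by -2.63. Rpl10 differed by -2.15, but by 0.29 among cells with a cycling mean under 0.5. Values of ribosomal proteins are uncertain, since reads are shared with pseudogenes such as Rpl31-ps12 (-2.62). Ranked by the mean of these genes, 8 marker-high cells were in the top 27 and 6 in the bottom 27, and the marker-low cells 9 and 10.

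Of 74 oxidative phosphorylation genes 53 were above 0, with a median of 0.55, which is 0.35 above that of all genes. Over all 76 the median was 0.53, and with rescaled libraries it was 0.07 over the 74, beside -0.28 for all genes. By 2 or more 5 were higher (6.76%, beside 2.61% of all genes) and 2 lower (2.70%, beside 0.441%). The complex I subunits split, with Ndufb8 (2.62) and Ndufb9 (2.56) higher and Ndufa6 (-3.21) lower in marker-high cells. The ATP synthase subunit Atp5j2 (-2.29) was higher (1.04) among cells with a cycling mean under 0.5. Members of 1 complex thus lay at both ends of the range.

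Glycolysis genes had a median of 0.80 over the 13 compared and 0.34 over all 15, led by Aldoa. This aldolase was at medians of 2386 TPM (41.02 to 7154) in marker-high and 978.4 TPM (1.76 to 4086) in marker-low cells, with a difference of 2.71, and its value is uncertain where reads fit near-identical gene copies. On the log2 scale the marker-high cells were tightly grouped (11.02 ± 1.32) and the marker-low cells widely spread (8.31 ± 3.65). The pyruvate kinase Pkm differed by -1.25. Fatty acid oxidation genes had a median of 0.08 over the 12 compared and over all 16, or -0.12 against that of all genes. Etfb was at 1.57 and Etfdh at -1.61.

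Cholesterol synthesis and uptake genes stood nearer to the astroglial lists, with a median of 1.08 and 9 of the 11 compared above 0. Over all 20 the median was 0.65, with 15 above 0. Idi1, the isomerase that makes isoprenoid precursors, was at medians of 56.5 TPM (0.49 to 1272) and 1.22 TPM (0 to 826.5) and differed by 2.90. Sc4mol, a sterol oxidase of the same pathway, differed by 2.06. Fdps, which condenses those precursors, was lower by 1.56, so members of the pathway differed in both directions. Lysosome genes had a median of 0.41, which is 0.21 above that of all genes, and of 0.28 over all 15. Psap, the precursor of saposins, was at 2.28. The tubulin Tubb2a (2.45) and Marcks (2.02) were the genes past 2 in a cytoskeleton list whose median was -0.23.

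Most of the 148 higher genes were in no list, but so were most of the 5674 genes compared. Their number outside the lists therefore does not show that listed genes were rare among the 148. In the 5 astroglial lists 18.4% of the genes compared were higher by 2 or more, beside 2.61% of all genes. Tcf7l2, a transcription factor of the Wnt pathway, had the largest difference outside the score, 3.91, and the largest beside its spread. It was seen in 24 of 27 marker-high cells (88.9%, exact interval 70.8 to 97.6) at a median of 88.5 TPM. In marker-low cells it was seen in 13 of 27 (48.1%, 28.7 to 68.1) at a median of 0.75 TPM. The intervals hold counting error only, and the gene was picked for its large difference, so the gap between them is not a test. Marker-middle cells lay between, with a median of 20.8 TPM and 21 cells. Atp6ap2, a subunit partner of the proton pump and receptor of renin, differed by 3.79, with medians of 41.8 and 0.67 TPM. Omg, a myelin glycoprotein also made by neurons, differed by 3.76, with medians of 501.5 and 2.27 TPM and 1.99 TPM in marker-middle cells. Unlike Tcf7l2, Omg was thus high in marker-high cells and near 2 TPM in both other groups.

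Others with large differences were Scrg1, a small secreted protein (3.47), the immune inhibitory receptor Sirpa (3.45), the autophagy adaptor Sqstm1 (3.36) and the phosphatase Ptpra (3.17). The septin Sept8 (3.12), the sodium pump subunit Atp1b1 (3.06), and the integrin activator Fermt2 (3.03) followed. Fermt2 was seen in 18 marker-high and 5 marker-low cells. Among the lowest were the matrix gene Mfap2 (-2.66), Praf2 (-2.63) and the nucleosome-binding Hmgn1 (-2.43). Hmgn1 was seen in 21 marker-low and 16 marker-high cells. The genes with the largest differences thus came from unlike functions.

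Apart from oligodendrocyte genes, the summed markers of each other cell type had medians of at most 17.1 TPM in all groups, with high values in single cells. Markers of neurons, oligodendrocytes, endothelium and red cells were higher in marker-high cells. Pericyte and smooth muscle genes went the other way over the 3 compared (-0.50), and ependymal and choroid plexus genes over the 2 compared (-0.58). Over every listed gene the medians of these last lists were 0.03 and 0. The part of other cell types in the results was not tested. Of 11 neuron genes 4 could be compared, with a median of 1.33, and over all 11 the median was 0.42. Snap25, a fusion protein of nerve terminals, was seen in 18 marker-high and 10 marker-low cells, up to 978.9 and 4.41 TPM, and differed by 2.20. The summed TPM of the neuron list ran from 1.89 over 17.1 to 1938 in marker-high and from 0 over 5.97 to 390 in marker-low cells, with Slc17a7, Syn1 and Nefm among the genes listed at 0 in every marker-low cell. Of 12 oligodendrocyte genes 5 could be compared, all above 0 with a median of 0.67, and over all 12 the median was 0.55. Their sum was at medians of 138.8 and 13.3 TPM and at highest values of 2039 and 2121 TPM. Endothelial genes had a median of 0.83 over the 3 compared and 0.24 over all 11, with sums up to 1347 and 83.6 TPM, and Cdh5 was listed at 0 in both groups.

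Haemoglobin RNA set some marker-high cells apart. Hba-a1 was seen in 13 marker-high and 2 marker-low cells, up to 8202 and 9.81 TPM, and differed by 3.40. It was the only 1 of the 5 erythroid genes that could be compared, and over all 5 the median was 0.73, with 4 above 0. Hbb-b1 was seen in 3 marker-high and 3 marker-low cells, and Alas2 differed by -0.15. The summed TPM of the list reached 9935 in a marker-high and 2701 in a marker-low cell. 4 marker-high cells (C114, C130, C137 and C97) and 0 marker-low cells had a mean of at least 4 over the erythroid list, and C137 also over the neuron list. The summed TPM of 12 microglia genes had medians of 10.1 in marker-high and 2.82 in marker-low cells, and reached 1491 and 2292. Their median difference was 0.38 over the 2 compared and 0.23 over all 12, with 9 above 0. Cx3cr1 was seen in 22 marker-high and 13 marker-low cells, while Tyrobp and Tmem119 were listed at 0 in both groups. Without the 4 cells and the marker-middle cell C139, which was high in endothelial and oligodendrocyte precursor genes, and with the other 76 cells ranked anew, the astroglial median was 1.28. The progenitor median was then -1.49.

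The number of detected genes also moved with the score, and its part was not tested. Of the marker-high cells 12 were among the 27 with the most genes and 7 among the 27 with the fewest, beside 6 and 11 of the marker-low cells. With cells of like gene number compared, the counts became 86 higher and 39 lower, the all-gene median 0.09, the astroglial median 1.01 and the progenitor median -1.35. The astroglial and progenitor lists thus lay on the same sides of the all-gene median, while 73 of the 148 higher genes were among those 86.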

How the data were processed

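Total RNA of single cells went through the NuGEN Ultralow V2 protocol, as the labels give it. TPM per gene was deposited by the authors in 1 table of 23307 genes and 172 columns, estimated with RSEM against mm9, per the submitters' processing notes. Its version, the aligner, the annotation and any filters were not given in the sources used here. RSEM divides reads that fit several genes by its model, so near-identical genes are uncertain. TPM keeps no depth, so no count test or depth is given. Each column summed to 1000000 within rounding. The labels list 173 samples. Column C27 fits 2 titles and was used as a C library, and it was not among the cells selected. The reference at hand was of another build than mm9, so no coordinates are given.

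From these values log2(TPM + 1) was computed, cells were selected and split into 3 groups of 27, and group means were subtracted (Python 3.11.15, pandas 2.3.3, numpy 2.4.6, scipy 1.17.1, matplotlib 3.10.9). Genes needed a TPM of at least 1 in 20% of the 81 cells, and the score and cycling genes were left out. Doublets were not called. The subtraction was tested on real values to which known shifts were added, which checks the arithmetic only. The cells, the rule and the 30 gene lists were chosen with earlier results of these data known. Named genes are 20 set genes, the list members with the highest and lowest differences (2 of either kind, or 1 in lists of other cell types), 12 genes in no list at either end, each seen in at least 50% of the cells of its higher group, and the score genes. Some are not reported here. Single cells, and the genes whose difference reached 1 SD, were picked after their values were seen. Alternatives were other pseudocounts, filters, scalings, averages, group sizes, scores without each gene, other selection limits, and cells left out.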

Additional observations from a re-analysis of the deposited data

How the results depend on the processing

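The medians of the astroglial and stem cell lists were above 0 under all 28 alternatives, from 0.51 to 1.43 and from 0.21 to 1.05. Against the median of all genes the astroglial lists were above it in all 28, and the stem cell list in 27, falling 0.02 below it with Slc4a4 left out of the score. The progenitor median was below 0 in all 28, from -1.88 to -0.42. The counts of genes past a difference of 2, 148 higher and 25 lower, were within 1.5 times these values under 19 and 15 of the 28. They were 427 and 85 with a pseudocount of 0.1, 15 and 1 with 10, 49 and 74 with rescaled libraries, 361 and 89 with medians of log2 values, and 482 and 325 with the ratio of mean TPM, which also gave the astroglial median of 0.51. Splitting into 2 gave 22 and 9, and comparing the 20 highest with the 20 lowest cells 259 and 58. A cycling mean under 0.5, with 8 cells a group, gave 718 and 272. Groups of like gene number gave 86 and 39. The lower count alone moved by over 1.5 times in 4 others: 40 without Fgfr3 in the score, 80 among cells with at least 3000 genes (with 220 higher), 45 without cells of other types, and 13 without progenitor, S phase or stress cells (with 209 higher). Of the 148 higher genes 53 were also called without Fgfr3 in the score. Over the named genes, 3692 of 3710 values moved by less than the SD between cells, and 13 moved by more. That SD exceeded the difference itself for all but 11 of the 5674 genes compared. A value could thus lose its whole difference and still count as moved by less, so this count does not show that the differences were stable. The sign was opposite in 203 values of 58 genes, and 5 of these were of genes with a difference of at least 2: Atp1b2 (-0.034 by mean TPM) and, with a cycling mean under 0.5, Gli3 (-1.10), Rpl10 (0.29), Atp5j2 (1.04) and Tst (0.35). The cause was not tested. 3 alternatives (without the progenitor, S phase or stress cells, without the cell with the highest score, and values under a TPM of 1 set to 0 in the score) were chosen after seeing the data. No paired analysis was possible because the labels pair no cells. Depth is unknown and limits what a value of 0 means.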

Other observations

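Cells outside the selection also carried the astrocyte markers. The highest score of the series, 7.61, belonged to N11, a library of class N, which had 1385 TPM of Aqp4, 309.2 TPM of S100b, 1464 TPM of Gjb6, 219 TPM of Fgfr3 and 393.1 TPM of Slc4a4, with Aldh1l1 listed at 0. Its mean over the 5 astroglial lists was 6.40, above every selected cell (highest 5.66). Its eCFP was 71.4 TPM, beside 647.1 TPM in the selected cell with the least, while its Slc1a3 was 5746 TPM and its stem cell list mean 3.42. The median score of the 26 N libraries was 0.91, and their median Slc1a3 was 18.7 TPM. R3, of class R, had a score of 4.12 with Aqp4 at 14.98 TPM, S100b at 147.1 TPM and Gjb6 at 333.7 TPM, and a mean of 5.58 over neuron genes.

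The 56 C cells removed for cycling genes were not alike in astroglial genes. The 29 with a cycling mean from 1 to below 2 had a score of 1.92 ± 1.498 and an astroglial list mean of 4.42 ± 0.95 (SD between cells), near the 4.37 ± 0.75 of the selected cells. The 27 with a mean of 2 or more had a score of 0.91 ± 1.01 and an astroglial mean of 3.01 ± 0.95, with a median Slc1a3 of 717.2 TPM. C103, with a cycling mean of 1.06, had all 6 score genes, among them 1040 TPM of Aqp4 and 1252 TPM of Gjb6, a score of 6.23 and 7192 genes at a TPM of at least 1. C20, with a cycling mean of 2.63, had a score of 4.13 and 803.4 TPM of Gjb6. These single cells were picked after their values were seen.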
